A study of Mus musculus with 30 samples.

Results

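The loci of 8 genes that encode transcription factors of naive pluripotency, Klf2, Klf4, Klf5, Esrrb, Tbx3, Tfcp2l1, Zfp42 and Prdm14, were examined for binding of CTCF, of cohesin and of 4 chromatin remodelers before and after CTCF was degraded. A locus was the gene body in GENCODE M21 on GRCm38 plus 50 kb on either side, and all listed peaks that overlapped it were taken. The 8 loci are 8 of 21938 protein-coding gene loci, and they held 4096 of the 1428772 peaks listed in 20 peak lists. CTCF at 0 h gave 35 of these peaks, the cohesin subunit SMC1A at 0 h gave 30, CTCF at 12 h gave 2, and the remaining peaks belonged to the remodelers.

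The cells were mouse E14 embryonic stem cells, an established line, cultured without serum in medium with LIF, the MEK inhibitor PD0325901 and the GSK3 inhibitor CHIR99021. Every cell line, also at 0 h, carried CTCF AID, that is CTCF fused to an auxin-inducible degron, and the 12 h samples had received the auxin IAA for 12 h while the 0 h samples had not. CTCF and SMC1A were mapped with ChIP-seq (sequencing of immunoprecipitated chromatin) in CTCF AID cells, with 1 list per protein and time. CHD4, CHD8, SMARCA4 and SMARCA5 were profiled in lines with CTCF AID and a biotin tag on that remodeler, with 2 libraries per remodeler and time, which makes 16 remodeler libraries. No label says how many clones these lines represent or that the 2 libraries came from separate cultures, so the spread between them may be technical. The lists hold no expression values, and the cell type could not be checked against marker genes.

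The naive state is held by a network of transcription factors that stands downstream of LIF and of the inhibitors in the medium. Klf4 is a target of STAT3, the transcription factor that LIF activates. Esrrb is a target that TCF7L1 represses until GSK3 is inhibited, and Tfcp2l1 receives both inputs. CTCF is a zinc finger protein that stops cohesin as it extrudes DNA loops, in an orientation set by the CTCF motif. CHD4 is the ATPase of the NuRD complex, SMARCA4 that of BAF and SMARCA5 that of the ISWI complexes, which space nucleosomes and open CTCF sites. CHD8 is a remodeler of the CHD family that has been described as a partner of CTCF.

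CTCF sites were numbered along the direction of transcription of each gene, and distances are from the first base of the gene record to the peak summit, negative upstream. A 15-base CTCF motif with the consensus GCCACCAGGGGGCGC, built from 2000 CTCF peaks outside these loci, matched within 60 bp of the summit in 92.1% of all CTCF peaks and in 5.0% of windows shifted by 100 kb. In the 8 loci it matched 29 of 35 CTCF peaks, or 82.9%. The sequences below are from GRCm38, on the strand of the motif, 5′ to 3′, with the matched 15 bases in capitals. The first pair are the 2 sites still listed for CTCF at 12 h, at chr5:119713047-119713091 (minus strand) and chr8:43333695-43333739 (minus strand).
Tbx3-10: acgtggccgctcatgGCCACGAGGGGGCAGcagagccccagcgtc
Zfp42-1: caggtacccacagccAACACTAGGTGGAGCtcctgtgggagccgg

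The next set are sites that lost remodeler peaks in both libraries, which the values further on describe. Tbx3-4 lies at chr5:119691307-119691351 (minus strand), Tbx3-5 at chr5:119692627-119692671 (minus strand), Esrrb-4 at chr12:86433442-86433486 (minus strand) and Esrrb-9 at chr12:86559062-86559106 (plus strand).
Tbx3-4: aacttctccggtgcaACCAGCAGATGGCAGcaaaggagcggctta
Tbx3-5: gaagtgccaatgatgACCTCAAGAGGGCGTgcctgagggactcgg
Esrrb-4: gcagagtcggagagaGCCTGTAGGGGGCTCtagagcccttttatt
Esrrb-9: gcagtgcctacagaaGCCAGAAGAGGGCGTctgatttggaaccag

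A further set shows how alike some sites are. Esrrb-9 above and the sites Esrrb-1, Tbx3-7, Tbx3-8 and Prdm14-1 carry the run AGAAGAGGG inside the match. This run was found in 9 of the 29 matches, or 31.03%, against 4646 of 27544 matches elsewhere, or 16.9%, and it was picked out after the sequences had been seen. Esrrb-3, the strongest CTCF peak of the Esrrb locus, has 1 mismatch to the consensus. Positions are chr12:86402910-86402954 (minus strand) for Esrrb-3, chr12:86336392-86336436 (minus strand) for Esrrb-1, chr5:119703192-119703236 (plus strand) for Tbx3-7, chr5:119709020-119709064 (plus strand) for Tbx3-8 and chr1:13151222-13151266 (plus strand) for Prdm14-1.
Esrrb-3: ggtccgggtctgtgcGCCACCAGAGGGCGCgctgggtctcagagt
Esrrb-1: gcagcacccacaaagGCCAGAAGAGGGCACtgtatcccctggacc
Tbx3-7: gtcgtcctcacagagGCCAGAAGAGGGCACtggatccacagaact
Tbx3-8: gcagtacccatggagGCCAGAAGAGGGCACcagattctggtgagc
Prdm14-1: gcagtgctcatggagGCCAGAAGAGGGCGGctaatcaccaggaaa

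The strongest CTCF peak of all 8 loci, Klf4-4, had no match at the threshold used. The stretch below is chr4:55480617-55480677 on the plus strand, and its capitals mark the run closest to the consensus, at an edit distance of 3. A run at an edit distance of 3 or less was found in 12.2% of the 2361 CTCF peaks without a match and in 0.296% of shifted windows. At the Tbx3 start, site Tbx3-2 carries the match GCCTCTAGGTGGCTG on the minus strand, within the first exon.
Klf4-4: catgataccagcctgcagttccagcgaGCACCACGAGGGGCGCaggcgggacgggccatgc

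The set of RefSeq (GRCm38.p6) promoter sequences used here covered 5 of the 8 genes. The 250 bases before the start are given for 4 starts that the values on gene starts turn on, those of Tfcp2l1, Zfp42 and Klf4 and the second start of Esrrb, at chr1:118627695-118627944 (plus strand), chr8:43307010-43307259 (minus strand), chr4:55532476-55532725 (minus strand) and chr12:86421394-86421643 (plus strand). Capitals mark 3 promoter elements, each searched on either strand. The first is GGGCGG, the GC box to which factors of the SP family bind. Krüppel-like factors bind the next element, which was spelled CCACCC here. The last is TATAAA, at which the general transcription machinery assembles. Of all 32851 RefSeq promoters, 32.7% held the first, 28.1% the second, called the CACC box, and 12.4% the last, the TATA box, in this window. The Klf4 window held 4 GC boxes, 1 pair of them sharing bases, and no CACC box. The Zfp42 window held 2 GC boxes and 2 CACC boxes. The second Esrrb start had 1 CACC box and the Tfcp2l1 start 1 TATA box. The Klf4 window held 32 CpG dinucleotides and the second Esrrb window 3, against a median of 6 over all promoters.
Tfcp2l1: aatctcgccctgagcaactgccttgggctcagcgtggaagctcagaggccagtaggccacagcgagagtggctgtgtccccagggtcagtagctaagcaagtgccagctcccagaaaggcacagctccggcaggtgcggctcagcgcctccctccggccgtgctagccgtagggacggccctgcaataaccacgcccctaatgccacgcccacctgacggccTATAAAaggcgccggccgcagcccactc
Zfp42: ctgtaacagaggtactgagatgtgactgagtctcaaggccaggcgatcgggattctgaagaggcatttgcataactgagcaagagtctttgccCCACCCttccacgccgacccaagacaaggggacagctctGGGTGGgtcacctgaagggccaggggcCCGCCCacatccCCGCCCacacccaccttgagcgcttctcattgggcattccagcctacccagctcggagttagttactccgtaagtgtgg
Klf4: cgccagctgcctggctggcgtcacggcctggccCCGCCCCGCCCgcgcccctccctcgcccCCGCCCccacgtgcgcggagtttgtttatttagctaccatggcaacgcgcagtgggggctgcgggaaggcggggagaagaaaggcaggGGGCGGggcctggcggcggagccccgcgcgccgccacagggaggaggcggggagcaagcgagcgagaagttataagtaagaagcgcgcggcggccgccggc
Esrrb second start: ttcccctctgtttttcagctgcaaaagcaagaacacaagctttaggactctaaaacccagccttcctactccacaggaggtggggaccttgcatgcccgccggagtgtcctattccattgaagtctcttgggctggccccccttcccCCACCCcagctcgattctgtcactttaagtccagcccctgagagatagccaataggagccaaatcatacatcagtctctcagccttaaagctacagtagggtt

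Across the genome the CTCF list shrank from 29934 peaks at 0 h to 2248 at 12 h, and the SMC1A list from 16724 to 10. The remodeler lists held 40880 to 187294 peaks and did not shrink in step, and the CHD8 lists, for one, had 51943 and 40880 entries before and 51840 and 42297 after IAA. The lists give no read counts, so the depth behind them is unknown here. All lists end at a -log10 q between 1.3 and 2.95. The second CHD4 library stood apart at both times, with 187294 and 159918 peaks of a median width of 119 and 94 bp, while the median width in the other remodeler libraries was 358 to 647 bp. Fold values below are the authors' fold enrichment at the peak summit and rank peaks within 1 list only.

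Nearly all CTCF peaks of the 8 loci were gone at 12 h. Of 35 CTCF peaks at 0 h, 2 still had a CTCF peak at 12 h, which is 5.71% with an exact binomial 95% interval of 0.700 to 19.2%. Over the whole list 7.44% of peaks had one, and 92.6% did not, so the share near these genes was close to that of the whole genome. The intervals here and below cover counting error only, and CTCF had 1 list per time, so there is no replicate check.

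The Tbx3 locus held 10 CTCF peaks and Esrrb 9, Klf4 had 5, Klf2, Zfp42 and Prdm14 had 3 each, and Klf5 and Tfcp2l1 had 1 each. One of the 2 sites kept was Tbx3-10, at chr5:119712845-119713353, 42409 bp downstream of the start of Tbx3, a T-box factor. It had a fold of 26.1 at 0 h, higher in -log10 p than 92.6% of CTCF peaks, and 12.9 at 12 h. The other was Zfp42-1, at chr8:43333506-43333921 and -26753 bp from the start of Zfp42 (Rex1), a zinc finger gene much used as a reporter of the naive state. Its fold was 36.4 at 0 h and 10.6 at 12 h. Both were intergenic, and by -log10 q they were the strongest CTCF sites of their loci at 0 h. The strongest site of all, Klf4-4, had a fold of 46.5 at 0 h, above 98.97% of CTCF peaks, and was not listed at 12 h.

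Tbx3-2 was the single CTCF peak within 500 bp of a gene record's start, at chr5:119670441-119671068 with its summit 58 bp inside the gene, and its fold was 26.9. CTCF had a peak there in 10.9% of all protein-coding genes. At Klf4, the Krüppel-like factor downstream of LIF, the nearest CTCF peaks were Klf4-1 and Klf4-2, 1005 and 2010 bp inside the gene. The remaining nearest sites lay farther off. They were at 3013 bp for Klf5, at -4917 bp for Tfcp2l1, a CP2-family factor, at -7375 bp for Prdm14, a PR-domain protein that restrains FGF signalling and DNA methylation, and at -16751 bp for the first start of Esrrb, an orphan nuclear receptor. For Zfp42 it was at -21872 bp and for Klf2 at -45738 bp.

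**Figure D1:**
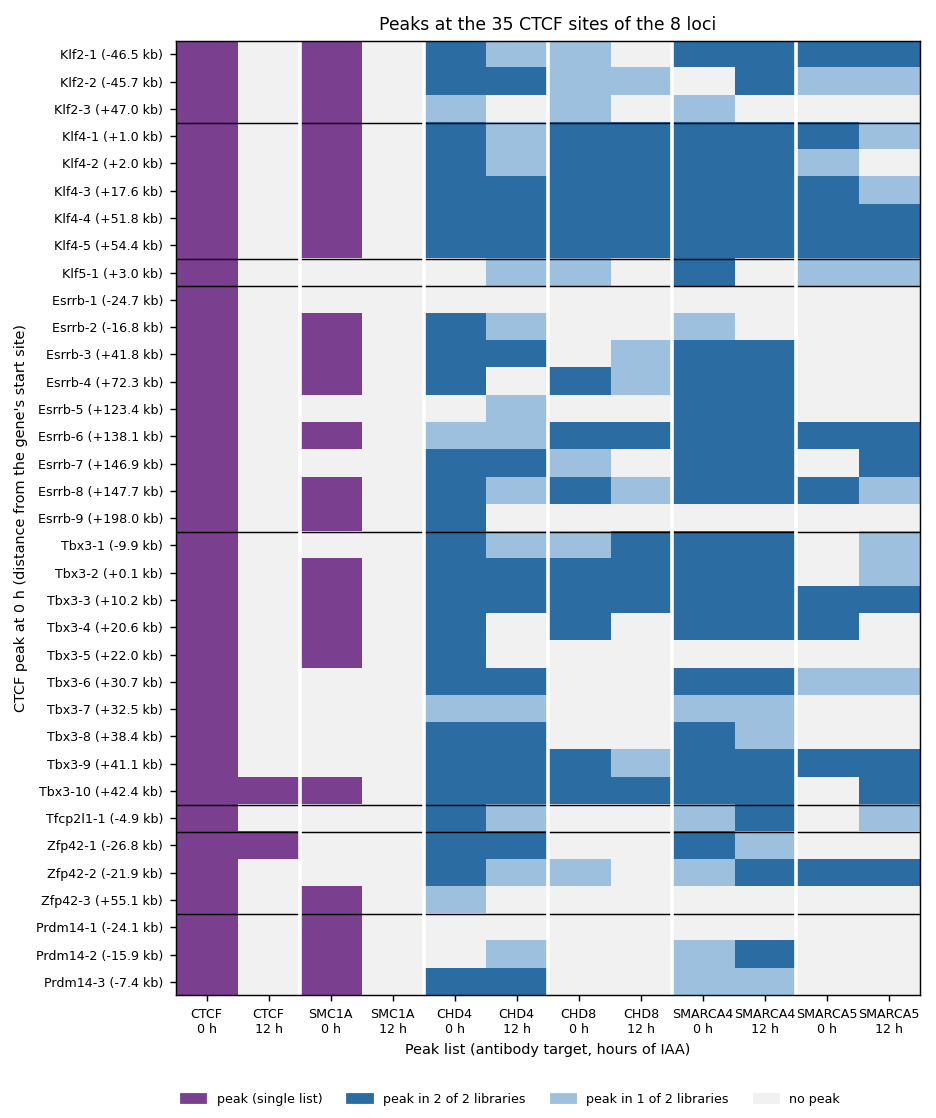
Peaks at the 35 CTCF sites of the 8 loci (vertical axis, with the distance from the gene start in kb) for each protein at 0 h and 12 h (horizontal axis). Purple marks a peak in the single CTCF or SMC1A list, dark and light blue a remodeler peak in 2 or 1 of the 2 libraries, and grey no peak. Klf4-4, Klf4-5 and Tbx3-3 are dark blue throughout, Esrrb-1 and Prdm14-1 grey, and Tbx3-4 turns grey at 12 h in CHD4, CHD8 and SMARCA5.

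SMC1A peaks were absent from the 8 loci after 12 h. At 0 h, 23 of the 35 CTCF peaks overlapped an SMC1A peak, which is 65.7% (exact 95% interval 47.8 to 80.9%), and over the genome the share was 46.0%. None of the 30 SMC1A peaks had a 12 h peak, and 0 of 30 allows a share of up to 11.6%. That is also the state of the whole list, in which 99.9% of SMC1A peaks had none and 10 of 16724 did. The strongest SMC1A peak of the 8 loci lay on Tbx3-4, at chr5:119690751-119691740, with a fold of 17.0, above 99.5% of all SMC1A peaks. The next by rank was at Esrrb-3, in an intron of Esrrb, with a fold of 8.91, and then at Klf4-3, 17618 bp downstream of the Klf4 start, with a fold of 8.66. Zfp42-1, one of the sites that kept CTCF, had no SMC1A peak at 0 h.

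Of the 30 SMC1A peaks, 21 lay on a CTCF peak, or 70.0%, against 81.7% of all SMC1A peaks. The other 9 lay where CTCF was not listed: in the body of Klf2, at the start of Klf5, at 4 places in Esrrb, at 14877 bp in an intron of Tfcp2l1, at -46367 bp from Zfp42 and at 42152 bp from Prdm14. Of these 9, 7 fell in a stretch where all 16 remodeler libraries had peaks, which is 77.8%, against 58.3% of all SMC1A peaks without CTCF. Among the 21 on CTCF, 10 fell in such a stretch, 47.6% against 12.9% of all. Most SMC1A peaks without CTCF in these loci thus lay in merged stretches that held a peak of every remodeler library. No test of the difference was made.

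Remodeler peaks were listed at a larger share of the CTCF sites of these genes than of all CTCF sites. A remodeler was counted at a site when a peak of its library came within 100 bp of the CTCF summit. At 0 h, CHD4 had a peak at 30 and 26 of the 35 sites (85.7% and 74.3%) in its 2 libraries, and SMARCA4 at 24 and 27 (68.6% and 77.1%). CHD8 had one at 20 and 13 sites (57.1% and 37.1%) and SMARCA5 at 12 and 14 (34.3% and 40%). CHD4 and SMARCA4 were at most of the sites, and SMARCA5 had the lowest mean of the 2 libraries, although its second library was at 1 site more than that of CHD8. Over all 29934 CTCF sites the same counts gave 46.8% and 35.8% for CHD4, 31.1% and 21.9% for SMARCA4, 26.3% and 21.6% for CHD8, and 13.9% and 20.2% for SMARCA5. Each of the 8 libraries had the higher share in the 8 loci, and that difference was not tested, since sites of 1 locus share their surroundings.

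After 12 h, CHD4 was at 27 and 14 sites (77.1% and 40%), CHD8 at 13 and 12 (37.1% and 34.3%), SMARCA4 at 24 and 26 (68.6% and 74.3%) and SMARCA5 at 14 and 13 (40% and 37.1%). The mean over the 2 libraries went from 80% ± 8.08 to 58.6% ± 26.3 for CHD4 and from 47.1% ± 14.1 to 35.7% ± 2.02 for CHD8 (SD, n = 2). For SMARCA4 it went from 72.9% ± 6.06 to 71.4% ± 4.04 and for SMARCA5 from 37.1% ± 4.04 to 38.6% ± 2.02 (SD, n = 2). The libraries of the 2 times overlapped or touched for every remodeler. The mean of the 4 changes was -8.21 percentage points, with a pooled SD between replicates of 11.4 points. Over all CTCF sites at 12 h the shares were 22.7% and 14.2% for CHD4, 16.2% and 13.0% for CHD8, 21.5% and 24.8% for SMARCA4, and 13.9% and 10.3% for SMARCA5.

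The second CHD4 library at 12 h, the one with the narrowest peaks, decided much of that mean. Without it the mean change was -3.57 points, and without the first CHD4 library at 12 h it was -12.9. Whether the peak width of that library sets its count was not tested. In all, 166 of 280 pairs of a site and a remodeler library had a peak at 0 h and 143 at 12 h. By site, 17 had fewer libraries at 12 h, 9 had more and 9 had as many.

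**Figure D2:**
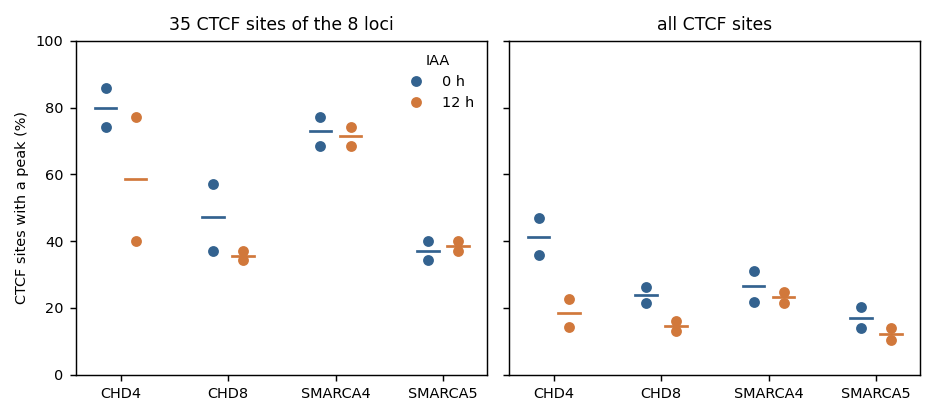
Percent of CTCF sites with a remodeler peak (vertical axis) at 0 h and 12 h of IAA for each remodeler (horizontal axis), for the 35 sites of the 8 loci and for all CTCF sites. Points are libraries and lines their means. The points of the 8 loci lie above those of all CTCF sites in every library, and CHD4 at 12 h shows the widest gap between its libraries, 77.1% and 40%.

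Few sites changed in both libraries of a remodeler. A site was called lost when both libraries at 0 h and neither at 12 h had a peak there, and gained for the converse. CHD4 was lost at 4 of 35 sites (11.4%) and gained at 0, where the whole list had 12% lost and 0.13% gained. CHD8 was lost at 1 (2.86%) and gained at 0, with 4.52% and 0.2% in the whole list. SMARCA4 was lost at 1 and gained at 1 (2.86% each), with 2.21% and 1.02% in the whole list. SMARCA5 was lost at 1 (2.86%) and gained at 2 (5.71%), with 2.38% and 0.658% in the whole list. Taken over all sites, the losses were near the share of the whole list or below it for CHD4 and CHD8. Only a site with a peak in both 0 h libraries can be lost, and 0 h peaks were more frequent here. CHD4 at 0 h was at 85.7% and 74.3% of the 35 sites, against 46.8% and 35.8% of the whole list. Among sites that could lose CHD4, the lost share was therefore lower here, which was not tested. The SMARCA5 gains, above the whole list, rest on 2 sites.

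The site with the most losses was Tbx3-4, at chr5:119691104-119691504, 20640 bp downstream of the Tbx3 start and 91 bp from the start of the antisense gene Tbx3os2. All 8 remodeler libraries had a peak there at 0 h and 2 did at 12 h: CHD4, CHD8 and SMARCA5 went from 2 libraries to 0, while SMARCA4 stayed at 2. It is also the site of the strongest SMC1A peak. Its neighbour Tbx3-5, at 21965 bp, had CHD4 alone in both libraries at 0 h and nothing at 12 h. CHD4 was also lost at Esrrb-4, in an intron at 72344 bp, where the libraries went from 6 to 3, and at Esrrb-9, at 197986 bp, where they went from 2 to 0. SMARCA4 was lost at Klf5-1, in an exon of Klf5 at 3013 bp. The CHD4 losses at these sites and the CHD8 loss at Tbx3-4 were also called by the region rule given further on, which merges peaks of a remodeler. By that rule SMARCA5 was not lost at Tbx3-4, nor SMARCA4 at Klf5-1. Gains were SMARCA4 at Klf2-2, at -45738 bp, and SMARCA5 at Esrrb-7, at 146898 bp, and at Tbx3-10, which had 6 libraries at 0 h and 8 at 12 h.

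Other CTCF sites of the same genes held their remodelers. Klf4-4 and Klf4-5, at 51819 and 54401 bp downstream of the Klf4 start, and Tbx3-3, in an exon of Tbx3 at 10193 bp, had a peak in all 16 libraries. The CTCF peak at Klf4-4 ranked above 98.97% of CTCF peaks and that at Tbx3-3 above 0.648%, so both a strong and a faint CTCF site were in this group. Tbx3-2 at the start had 6 libraries at 0 h and 7 at 12 h, and the lacking ones were of SMARCA5. At the other end, Esrrb-1 and Prdm14-1 had no remodeler peak at either time, although Prdm14-1 had an SMC1A peak with a fold of 8.07 and both carry the AGAAGAGGG run. Other sites with the run had remodelers. At 0 h and 12 h, Tbx3-9 had 8 and 7 libraries, Esrrb-8 8 and 5, Klf2-2 4 and 6 and Tbx3-8 4 and 3. Esrrb-2 had 3 and 1, Tbx3-7 2 and 2 and Esrrb-9 2 and 0. The run was thus found at sites with all 8 libraries at 0 h and at sites with none, but at no site with a peak in all 16 libraries.

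For each gene locus in the genome with a CTCF site, the share of its sites with a remodeler peak was compared between the times by an exact permutation test, two-sided, in which the libraries were reassigned within each remodeler (smallest possible p 0.00154). No locus passed after Benjamini-Hochberg adjustment over 17662 loci (0% called), and the smallest adjusted p was 0.274. With p bounded at 0.00154, the adjustment can call a locus only if many loci reach that bound together. The lack of calls therefore does not show that no locus changed. At an unadjusted p under 0.05, 12.9% of loci were lower at 12 h and 0.0113% were higher, and by limma 341 were lower and 2 higher after adjustment. None of the 8 genes had an unadjusted p under 0.05, and their smallest adjusted p by limma was 0.291. Of the 8, 6 had a lower mean at 12 h and 2 a higher one, with a median change of -11.1 percentage points. Over all loci tested the median was -9.38, with 73.9% lower and 4.72% higher.

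Klf4 had the fullest occupancy, at 97.5% of pairs of a site and a library at 0 h and 85% at 12 h (exact permutation p = 0.33, adjusted 0.735). Tbx3, with 10 sites, went from 67.5% to 60% (exact p = 0.259, adjusted 0.681), and Esrrb, with 9, from 51.4% to 41.7% (exact p = 0.25, adjusted 0.660). CHD4 changed by -25 points at Tbx3 and by -27.8 at Esrrb, and SMARCA5 by 10 and by 5.56. Thus the 3 loci with the most sites had a negative mean that did not exceed what relabelling gives. Klf2 went from 58.3% to 45.8%, Zfp42 from 45.8% to 33.3% and Klf5, with 1 site, from 50% to 25%. Prdm14 had the least at 0 h, 16.7%, and 25% at 12 h, and Tfcp2l1, also with 1 site, had 37.5% and 50%.

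Remodeler peaks away from CTCF were listed in the 8 loci at both times. The peaks that overlapped no CTCF peak of 0 h, per 10000 such peaks of the library, numbered 23.2 and 27.5 for CHD4 at 0 h and 25 and 30.8 at 12 h. For SMARCA4 they numbered 23 and 30.2 and then 26.5 and 24.9, and for SMARCA5 38.4 and 38.1 and then 34.5 and 38.8. CHD8 had 29.8 and 29.4 at 0 h and 35.8 and 34.2 at 12 h. CHD8 alone had both 12 h libraries above both 0 h libraries, by 0.24 on the log2 scale; with 2 libraries against 2 the exact test within a remodeler cannot go below p = 0.33. The mean of the 4 log2 changes was 0.07, with a pooled SD between replicates of 0.15, so the whole was not distinguishable from the spread. Without scaling to list length it was 0.21, and with peaks of -log10 q from 5 up it was 0.01.

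By the number of all peaks relative to locus length, those at CTCF sites included, the Klf5 locus stood above 99.8% of all gene loci or more for SMARCA4 at 0 h (35 to 40 peaks) and above 98.1% or more at 12 h (34 to 35 peaks). Tbx3, with 30 to 31 peaks at 0 h and 39 to 43 at 12 h, stood above 99.15% or more. Klf2, with 23 to 26 peaks at 0 h and 29 to 30 at 12 h, stood above 97.6% or more. These 3 loci were among the densest in the genome at both times. Klf4 and Tfcp2l1 were the sparsest of the 8 in these SMARCA4 lists, with Klf4 above 86.3% to 92.4% of loci at 0 h and Tfcp2l1 above 71.0% to 89.5%. Klf2 shares its locus with Eps15l1 and Gm10282, Klf5 with Pibf1, Tfcp2l1 with Clasp1 and Prdm14 with Ncoa2, and their peaks cannot be assigned to 1 gene.

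**Figure D3:**
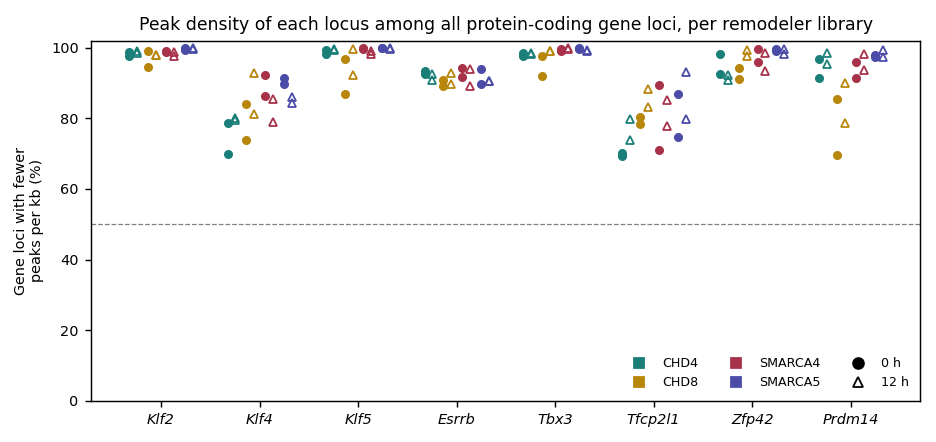
Percent of protein-coding gene loci with fewer remodeler peaks per kb (vertical axis) than each of the 8 loci (horizontal axis). Points are the 16 libraries, coloured by remodeler and shaped by time, and the dashed line marks the median locus. Every point lies above that line, Klf2, Klf5 and Tbx3 mostly near the top, and the lowest points belong to Klf4, Tfcp2l1 and Prdm14, such as Tfcp2l1 at 71.0% in SMARCA4 at 0 h.

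The same exact permutation test on peaks away from CTCF called no locus out of 21938 (0% after adjustment, smallest adjusted p 0.429). The bound on its p limits these calls as well. By limma 0 were called too. At an unadjusted p under 0.05 in the permutation test, 3.49% were lower and 3.81% higher. None of the 8 genes had an unadjusted p under 0.05. The largest changes were at Prdm14, by 0.22 on the log2 scale (exact permutation p = 0.128, adjusted 0.783), with a higher mean in each of the 4 remodelers, and at Tfcp2l1, by 0.20 (exact p = 0.130, adjusted 0.783). For Prdm14 the counts at 0 h and 12 h were 24 and 62 against 29 and 68 for CHD4, 12 and 6 against 15 and 8 for CHD8, 20 and 17 against 30 and 25 for SMARCA4, and 21 and 26 against 33 and 26 for SMARCA5. Only in SMARCA4 did both 12 h counts lie above both 0 h counts, and per 10000 peaks of the library these overlapped, at 2.42 and 2.68 and then 3.36 and 2.65. The other 6 genes changed by between -0.02 and 0.14. Over the 8, 2 were lower and 6 higher with a median of 0.08, and the median of all loci was 0.

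Over the 16 libraries, the locus whose peaks away from CTCF followed those of Klf4 most closely was Arid4b, with a Pearson r of 0.93. For Klf2 it was Prkci and for Zfp42 Klhl20, both also at 0.93. For Tfcp2l1 it was Uts2b (0.91), for Tbx3 Gm10762 (0.90), for Esrrb Pycrl (0.90), for Klf5 Bcl6 (0.88) and for Prdm14 Zfp1 (0.87). These r values share list length and peak width across the libraries, and each is the highest of all loci on other chromosomes.

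Regions that appeared or disappeared in both libraries were few and went both ways. Peaks of a remodeler's 4 libraries were merged, and a region was called lost or gained by the same rule as for sites. CHD4 had 12 lost and 12 gained among 415 regions of the 8 loci, or 2.89% each, with 5.69% lost and 2.02% gained in the genome. CHD8 had 4 lost and 16 gained among 223, or 1.79% and 7.17%, against 3.66% and 3.86% in the genome. SMARCA4 had 1 lost and 22 gained among 280, or 0.357% and 7.86%, against 1.61% and 5.66%, and SMARCA5 had 7 and 16 among 361, or 1.94% and 4.43%, against 2.88% and 3.63%. In each remodeler the share lost was below the genome's and the share gained above it, by the most for CHD4 among the losses and for CHD8 among the gains when taken as a difference in percent. When only peaks with a -log10 q of at least 5 were used, CHD8 had 5 lost and 3 gained and SMARCA4 7 and 11, so at that threshold gains no longer exceeded losses for CHD8. CHD4 then had 7 lost and 1 gained, and SMARCA5 4 and 7. The number of regions and the genome's shares at that threshold are not given here, so these counts cannot be set against the genome.

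SMARCA4 gained 8 of its 32 regions at Prdm14 (25%, against the 5.66% of the genome), and 5 of them lay between 33630 and 40650 bp downstream of its start. The one with the highest rank, at chr1:13093308-13093757, had folds of 5.29 and 6.88 at 12 h. At Zfp42, CHD8 gained 5 of 27 regions (18.5%) and CHD4 lost 5 of 46 (10.9%). CHD4 gained 5 of 50 at Klf2 (10%) and SMARCA5 gained 6 of 75 at Esrrb (8%). These loci were picked for their counts, and no test was made. The strongest CHD4 region gained was at Klf2, at chr8:72277706-72277960 (folds 5.62 and 4.65), and the strongest lost was at Tbx3, at chr5:119699989-119700285 (7.08 and 4.88). For CHD8 the strongest gained region was 5260 bp downstream of the Klf2 start, at chr8:72323868-72324718 (4.51 and 3.28), and the strongest lost one was that of Tbx3-4 (2.86 and 2.82). For SMARCA5 the strongest gained region lay in an intron of Esrrb at chr12:86490432-86490861 (3.73 and 4.22), and the strongest lost one at chr8:43289394-43289675 downstream of Zfp42 (5.14 and 5.02). The single SMARCA4 region lost lay in an intron of Clasp1, -38455 bp from the Tfcp2l1 start.

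**Figure D4:**
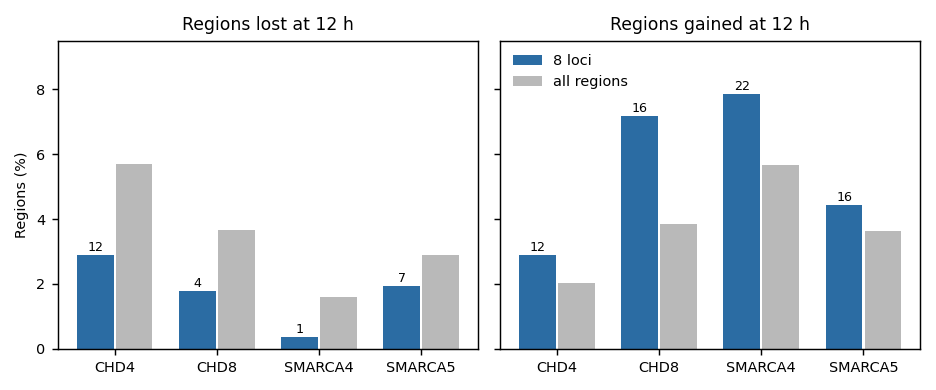
Percent of each remodeler's regions (vertical axis) called lost or gained at 12 h, for the 8 loci in blue with the number of regions above the bar and for all regions of the genome in grey. The blue bars are lower than the grey ones for losses and higher for gains in all 4 remodelers, as with 1 lost and 22 gained for SMARCA4.

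Some merged regions held a peak of every library. Peaks within such a region need not overlap each other, so it can hold a narrower region called lost or gained. The SMARCA5 gain at chr12:86490432-86490861 in Esrrb lies in one of them. Merging all 16 lists gave 362 regions in the 8 loci, and 35 of them, or 9.67%, had a peak in all 16 libraries, against 5.85% in the genome. They covered 203.4 kb at full width, which includes stretches past the locus edge at Klf2, Klf4 and Zfp42. Set against locus length this was 18.8% for the 8 loci, 31.9% for Tbx3, 28.4% for Klf2 and 10.9% for Tfcp2l1. The values for the 8 loci and for Klf2 are therefore upper bounds of the share covered. Of the 35 CTCF peaks, 16 lay in such regions (45.7%, against 11.9% of all CTCF peaks), while 3 had all 16 libraries within 100 bp of the summit. Of the 8 gene starts, 7 did (87.5%, against 33.1% of all protein-coding genes), and the first Esrrb start was the exception. Region length was not matched, and no test was made.

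Downstream of Klf4, a region of 11641 bp between 50049 and 61689 bp from the start held sites Klf4-4 and Klf4-5. SMARCA4 had a fold there of 27.1 and 27.9 at 0 h and of 25.7 and 25.1 at 12 h. CHD4 had 13.9 and 13.6 and then 9.23 and 9.39, CHD8 had 9.54 and 7.40 and then 8.76 and 5.48, and SMARCA5 had 8.45 and 9.01 and then 9.63 and 8.92. The region runs past the locus edge at chr4:55477143, and each fold is that of the strongest peak anywhere in it, not the same peak in every library. Counted so, it held peaks above 99.65% of SMARCA4 peaks or more, and above 99.25% of SMARCA5 peaks or more, in every library of both times. Among peaks that overlap the locus itself, the strongest SMARCA4 folds were 27.1 and 22.0 at 0 h and 21.05 and 25.1 at 12 h. For SMARCA5 they were 7.24 and 8.19 and then 9.63 and 5.82. At Tbx3, a region from 6662 to 19100 bp downstream of the start had the strongest CHD4 peak of the 8 loci in the first library at 0 h. Its CHD4 folds were 33.1 and 15.97 at 0 h and 17.3 and 10.4 at 12 h. In the second library at 0 h the strongest was at Tbx3 too, 30709 bp downstream of the start and at site Tbx3-6, with a fold of 28.1. At Klf5, a region 37523 to 46080 bp downstream had CHD4 at 24.2 and 10.2 and then 19.3 and 15.1, and it holds no CTCF peak.

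In Esrrb the regions with a peak in all libraries lay within the second part of the gene, between 100931 and 160252 bp from the first start. Their midpoints lay in introns, but they were not confined to introns. The region from 108053 to 119613 bp also covers an inner start of Esrrb, described below. Its CHD8 summits at 0 h lay in an exon, at 109176 and 109250 bp. The region from 139053 to 149314 bp, with 2 CTCF sites, had SMARCA4 folds of 23.4 and 17.9 at 0 h and of 13.7 and 11.2 at 12 h. At Prdm14 the region 41053 to 49193 bp downstream had SMARCA4 at 15.2 and 17.2 and then 11.3 and 11.0, and it carries the SMC1A peak without CTCF at 42152 bp. At Zfp42 the region -15722 to -13508 bp from the start had CHD4 at 12.1 and 7.23 and then 17.9 and 11.0. In Klf2 a region 10095 to 19573 bp downstream had SMARCA4 at 15.1 and 21.9 and then 22.4 and 17.0.

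**Figure D5:**
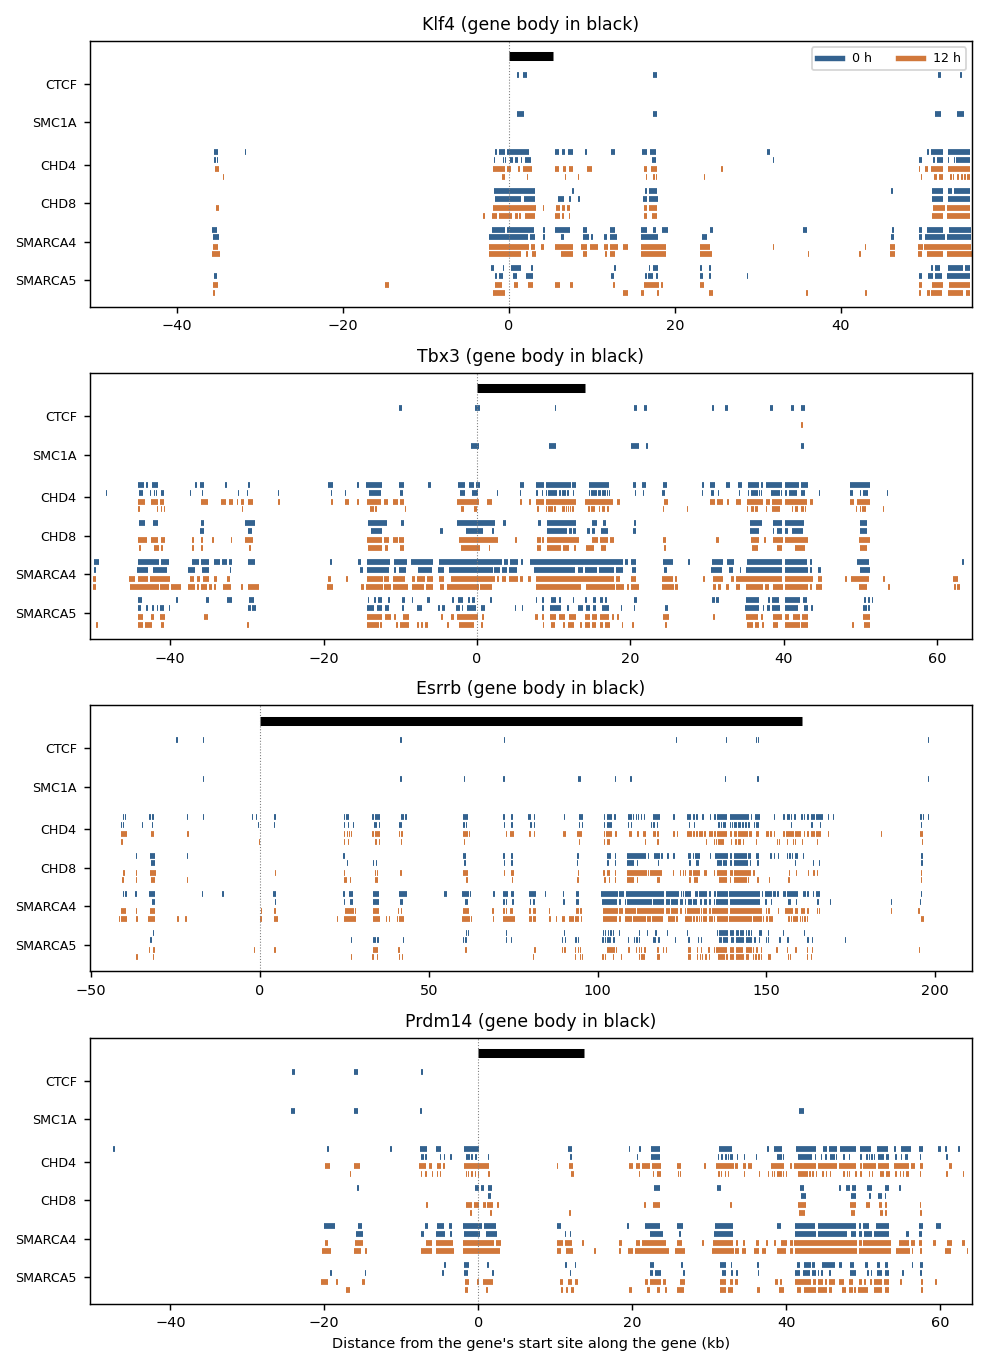
Peaks drawn to scale at the Klf4, Tbx3, Esrrb and Prdm14 loci, with the distance from the start along the gene in kb on the horizontal axis and the gene body in black. Lines within a protein are its lists, 0 h in blue and 12 h in orange. CTCF keeps 1 orange mark, at Tbx3-10, and SMC1A none, while the remodelers are drawn at both times.

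The gene starts were occupied by remodelers before and after CTCF left. A start counted as occupied when a peak came within 500 bp. Of the 8 starts, CHD4 was at 7 and 8 in its 2 libraries at 0 h and at 7 and 8 at 12 h, and SMARCA4 at 7 and 7 and then at 8 and 8. CHD8 was at 7 and 6 and then at 7 and 6, and SMARCA5 at 5 and 5 and then at 6 and 5. Over all genes these libraries were at 39.1 to 61.7% of starts. CTCF was at 1 start and SMC1A at 3 at 0 h, and both at 0 at 12 h.

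Zfp42 had the strongest CHD8 peaks of the regions over the 8 starts. Their summits were in an intron, 1122 and 1098 bp from the start at 0 h, and the folds were 31.7 and 24.5 at 0 h and 22.2 and 15.04 at 12 h. They ranked above 96.8%, 96.5%, 95.01% and 92.8% of the CHD8 peaks of the same library. In the first library this peak reached the start, while in the second library a separate peak lay there, with folds of 7.15 at 0 h and 8.08 at 12 h. Tfcp2l1 had the highest SMARCA4 peaks at a start at 12 h, with folds of 17.2 and 20.3 at 0 h and of 30.6 and 22.8 at 12 h and with its summit at -1982 and -1951 bp at 0 h and at -2038 and -1945 bp at 12 h. At Klf2 the region over the start had SMARCA4 at 25.4 and 17.9 and then at 19.5 and 15.3. The Klf4 start had CHD8 at 13.5 and 12.7 and then at 10.7 and 7.47, with 4 GC boxes in the promoter shown above. Each of these 4 starts thus had a peak of the remodeler named in both libraries at both times.

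Esrrb differed among its starts. The first start, at chr12 position 86361117, had a peak within 500 bp in CHD4 replicate 2 at both times (folds 4.24 and 4.02) and in both SMARCA4 libraries at 12 h (2.58 and 2.85), and in no other list. The start at 86421644, whose promoter is printed above, had peaks in both CHD4 and both SMARCA4 libraries at each time, and SMC1A at 0 h with a fold of 3.405. The start at 86470117 had CHD8 folds of 10 and 6.96 at 0 h and of 6.63 and 3.99 at 12 h, and SMC1A at 0 h with 5.22. Remodelers were thus found at the inner starts in most libraries and at the first start in few. Prdm14 had CHD8 at its start in the first library alone, at 4.06 at 0 h and 4.499 at 12 h.

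Other genes of the network were counted with the same 2 tests. No gene of any list passed the adjusted threshold. Beside the counts under an unadjusted p of 0.05 below stand, over all loci, 12.9% lower at CTCF sites, and away from CTCF 3.49% lower and 3.81% higher. Of 16 further pluripotency genes such as Nanog, Pou5f1 and Sox2, 15 had CTCF sites, and the mean occupancy of these sites was lower at 12 h at 14 and higher at 0, with a median change of -18.8 points and 4 below an unadjusted p of 0.05. Of 17 genes of the LIF, Wnt and MEK inputs, 16 had sites, 14 were lower and 0 higher, with a median of -12.5 and 3 below 0.05. Of 12 genes of the formative and primed states, which follow the naive one, 9 had sites, 7 were lower and 0 higher, with a median of -14.1 and none below 0.05. Of all loci, 73.9% were lower, with a median of -9.38, so lower values were the rule in the genome as well.

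Among these, Dppa3 (Stella), a maternal factor marking naive cells, had a change of -27.1 points (exact permutation p = 0.0185, adjusted 0.292), the zinc finger gene Sall4 one of -21.4 (exact p = 0.0185, adjusted 0.292) and Fgf4, whose signal drives cells out of the naive state, one of -16.7 (exact p = 0.0231, adjusted 0.292). The LIF receptor gene Lifr had -33.3 points (exact p = 0.0139, adjusted 0.281), the repressor gene Tcf7l1 -18.1 (exact p = 0.0139, adjusted 0.281) and Map2k2, which encodes a MEK kinase, -20.8 (exact p = 0.0463, adjusted 0.358). The sizes at the 8 naive factor loci, from -25 to 12.5 points, ran into these. Away from CTCF, the pluripotency genes had 5 lower and 11 higher and the input genes 5 lower and 12 higher, with 0 and 1 below an unadjusted p of 0.05. That 1 was Gsk3a, by 0.26 on the log2 scale (exact p = 0.0185, adjusted 0.591). The formative and primed genes had 6 lower and 6 higher, with Fgf5, an early marker of the exit from the naive state, at -0.77 (exact p = 0.00926, adjusted 0.550) and Dnmt3b at 0.25 (exact p = 0.0448, adjusted 0.665).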

How the data were processed

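Peak lists of CTCF, SMC1A, CHD4, CHD8, SMARCA4 and SMARCA5 from 20 ChIP-seq samples of CTCF AID mouse E14 cells were used, and 10 inputs were not analysed here. Per the submitters' processing notes, Trim Galore, Bowtie2, MACS2 and deepTools were used with mm10, and hg38 is also named; versions and settings are not given in the sources used here. Each deposited list gives, per peak, the summit offset, a fold (ratio) over background, and -log10 p and -log10 q scores made by the authors. No listed peak ran past a GRCm38 chromosome end.

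Loci came from GENCODE M21, and 12 h minus 0 h was averaged over the 4 remodelers. The tested measures were the percent of CTCF sites with a remodeler peak within 100 bp, and log2(value + 0.1) of peaks without CTCF per 10000. Both used an exact two-sided permutation test with Benjamini-Hochberg adjustment, and limma as an alternative; p-values measure only the spread between these libraries. Calls use adjusted p under 0.05, and code was tested on simulated data. Percentiles rank peaks by -log10 p within a list; regions count as overlapping from 1 bp. Other settings tried were equal list lengths, peaks with -log10 q from 5 up, windows of 25 and 100 kb, summit rules and leaving out each library. The members and lists were chosen with earlier results of these data known. Named by rule were the nearest, strongest, kept and lost CTCF sites of each gene, the top lost and gained region per remodeler, the most alike locus, and up to 3 genes per list by smallest p; other sites, regions and starts described were chosen after their values were seen. Sequences came from GRCm38 and RefSeq. Python 3.11.15, numpy 2.4.6, scipy 1.17.1, pandas 2.3.3, pysam 0.24.0, matplotlib 3.10.9, R 4.3.3 and limma 3.58.1 were used.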

Additional observations from a re-analysis of the deposited data

Results flagged for a closer look

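At 3 loci, peaks away from CTCF moved in opposite ways for a pair of remodelers, with both 12 h libraries outside both 0 h libraries in each; these differences between remodelers were not tested. At Klf4, CHD8 went from 0.910 and 1.17 to 1.29 and 2.10 peaks per 10000 (0.63 on the log2 scale) and SMARCA5 went from 1.81 and 1.68 to 1.51 and 1.59 (-0.16), a difference of 0.787. At Tbx3, CHD8 went from 2.73 and 4.08 to 4.71 and 4.73 (0.49) and SMARCA5 from 5.63 and 5.04 to 3.79 and 4.61 (-0.34), a difference of 0.831. At Zfp42, CHD4 went from 3.17 and 2.68 to 2.46 and 2.56 (-0.21) and CHD8 from 3.41 and 4.37 to 4.71 and 6.31 (0.49), a difference of -0.696. The plain counts do not all separate. At Klf4, CHD8 had 4 and 4 peaks against 6 and 8, and SMARCA5 9 and 11 against 10 and 10. At Tbx3, CHD8 had 12 and 14 against 22 and 18, and SMARCA5 28 and 33 against 25 and 29. At Zfp42, CHD4 had 31 and 46 against 24 and 39, and CHD8 15 and 15 against 22 and 24. The CHD8 counts were thus separate in all 3, and the SMARCA5 and CHD4 counts overlapped, so their separation rests on the scaling to list length. Without scaling, SMARCA5 at Tbx3 and CHD4 at Zfp42 still had a lower mean at 12 h. At Klf4 the unscaled SMARCA5 mean did not change, so there the opposite direction rests on the scaling as well.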

How the results depend on the processing

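Over the 8 loci, the mean change was -9.09 to -6.82 points at CTCF sites and 0.0105 to 0.206 (log2) away from them under other thresholds, windows, list lengths, scalings and site rules, and -12.9 to -3.57 and 0.0189 to 0.118 with 1 library left out; none of the 8 loci was called under any of these. CTCF peaks kept at 12 h were 0 within 25 kb and 5 within 100 kb. Over all gene loci, limma called 343 at CTCF sites and limma with a replicate block 61, where the permutation test called 0; away from CTCF both called 0. Replicate numbers were taken as names only, since the replicate differences of same-numbered libraries correlated between -0.131 and 0.116 at CTCF sites and between -0.203 and 0.249 away from them; the permutation with a replicate block called 0 loci on both measures, as did a block with the SMARCA4 numbers crossed, added after seeing the data.

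Regions counted by presence in both libraries moved most. The counts below stand without the number of regions or the genome's share under each setting, so they cannot be set against the genome. With a -log10 q of at least 5, CHD4 had 7 lost and 1 gained, CHD8 3 gained, SMARCA4 7 lost and 11 gained, and SMARCA5 4 lost and 7 gained. With equal list lengths CHD4 had 6 lost, and SMARCA4 4 lost and 9 gained. Within 25 kb SMARCA4 had 0 lost and 14 gained, and within 100 kb 2 lost, with CHD4 at 21 lost and 19 gained. Leaving out 1 library, which by construction asks for fewer libraries, gave CHD4 16 to 91 lost and 25 to 99 gained, CHD8 6 to 27 and 24 to 62, SMARCA4 7 to 19 and 32 to 60, and SMARCA5 19 to 49 and 23 to 62.

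Small changes of single genes, none called, turned sign. At CTCF sites, Tfcp2l1 was at -12.5 points by the summit rule. Away from CTCF, with a -log10 q of at least 5, Klf2 was at -0.0642, Klf4 at -0.15 and Esrrb at 0.0472; within 25 kb Klf2 was at -0.0571 and Klf4 at -0.0054; with equal lengths Esrrb was at 0.0103 and Zfp42 at -0.0115; within 100 kb Esrrb was at 0.0232; unscaled, Klf5 was at 0.12 and Esrrb at 0.11. Leaving out 1 library gave -0.0995 to 0.0855 for Klf5, -0.061 to 0.0209 for Esrrb and -0.0716 to 0.0792 for Zfp42. Apart from fewer libraries, the cause of these moves was not tested. A faint site can miss the peak threshold at unknown depth, so an absent peak does not show absent binding.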
